A study of Mus musculus with 20 samples.

Results

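The 49 fatty acid and sterol metabolism genes described here were measured in ovarian surface epithelial (OSE) cells. They are the genes of a list of 51 that were present among the 14299 genes of the count table. Of these, 14 belong to fatty acid uptake and storage, 12 to fatty acid and coenzyme A synthesis, 9 to beta-oxidation and 14 to sterol synthesis. The listed uptake genes Cd36 and Fabp3 were not analysed here. Primary cultures of mouse OSE cells, the layer that covers the ovary, were kept hormone-free for 48 hours and then given either 100 nM of the estrogen estradiol (E2) or its vehicle, ethanol at 0.0002%, and single cells of both were captured on 1 Fluidigm C1 chip after 15 days. Each column of the chip gave 1 library. The data hold 10 control libraries with 329 cells and 9 E2 libraries with 260 cells. Control cells entered the chip through its left inlet and E2 cells through its right, and no separate cultures are named within a condition, so that treatment, culture and side of the chip cannot be told apart and p-values measure only the spread between libraries, which may be technical. The cells were grown in serum with EGF and insulin before the hormone-free medium, and no transgene or allele is named for them. The strain, age and number of the donor mice are not given in the sources used here. All 589 cell names were distinct.

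The deposited labels for 2 clusters split the cells into cluster 1, which holds 126 control and 42 E2 cells, and a larger cluster of 203 control and 218 E2 cells, called responsive cells after the study. The questions were whether the lipid genes differ between E2 and control within each of these populations, and how they differ between the populations. For each library, the counts of its cells in one cluster were added up. Levels are given as CPM, the usual counts unit scaled to the TMM-normalised total of such a sum, and a level is compared only within a gene. Fewer cells with a transcript and fewer transcripts per cell cannot be told apart in a sum.

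Fatty acids enter a cell after lipases such as lipoprotein lipase release them from circulating triglyceride, are activated to acyl-CoA by the Acsl enzymes, and are stored in droplets coated by perilipins or shortened in mitochondria by beta-oxidation. Synthesis runs from citrate through Acly, Acaca and Fasn to elongases and desaturases. Cholesterol is built from acetyl-CoA through Hmgcs1, the mevalonate steps, squalene and lanosterol, and the transcription factors SREBP-1 and SREBP-2, encoded by Srebf1 and Srebf2, switch on many of these genes when sterols are low.

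The total count per library was 3867791 to 5078340 in control and 2693258 to 4037847 in E2. Responsive sums held 15 to 30 cells and 2136904 to 3904027 reads. Cluster 1 sums were smaller, with 8 to 18 cells in control and, in E2, 3 to 9 cells and 233995 to 771505 reads in the 7 libraries with at least 3 such cells. Of the OSE markers on the list, 9 of 11 were in the table, and their summed level was 4589 to 6654 CPM in responsive sums and 4298 to 7021 CPM in cluster 1 sums. Single OSE markers differed more between the clusters. Of 8 fitted, 5 were lower and 3 higher in cluster 1, from -4.41 to 3.28 on the log2 scale. Control means in responsive and cluster 1 cells were 407 and 26.2 CPM for Krt19 and 41.1 and 341 CPM for Msln. Only Retn of 7 adipocyte markers was in the table, at 0 to 33.7 CPM over the sums. Greb1, an estrogen-induced gene that checks the treatment label, was at 0 in 9 of 10 control libraries of responsive cells and at 15.99 to 63.0 CPM in the 9 E2 libraries. The fibroblast and mesenchyme list, with 8 of 10 markers in the table, summed to 2365 to 2821 CPM in control responsive cells and 3269 to 5233 CPM in control cluster 1 cells. Col1a2 had control means of 14.7 CPM in responsive and 1902 CPM in cluster 1 cells, whereas 5 of the 8 markers had a lower fitted level in cluster 1, among them Thy1 (169 and 9.58 CPM in control) and Col3a1 (559 and 275 CPM). The part of these markers in differences between the clusters was not tested. Between E2 and control responsive cells, 6 of 8 tested OSE markers had values below 0, with a median log2 fold change of -0.39, and 1 was called, Krt19, which was higher (log2 0.62). Of 7 tested fibroblast markers, 5 were below 0 and 1 was called, Thy1, which was lower (log2 -2.78). Without E2 library 15 the OSE marker Upk1b was also called, and was lower (log2 -0.67). Median mitochondrial shares were 2.08% and 2.43% of reads in control and E2 responsive cells and 2.53% and 3.55% in cluster 1. Median reads per cell were 143233 and 117809 in responsive cells and 112126 and 87632 in cluster 1.

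E2 library 15 stood apart from the other libraries of its group. In its responsive cells, 38.6% of 6841 genes lay more than 2-fold from the median of the E2 libraries, against 6.75% to 14.2% in the other 8 libraries. In its 3 cluster 1 cells the share was 61.3% of 6533 genes, against 31.4% to 40.5%. The summed level of 8 fibroblast and mesenchyme markers was 5119 CPM in its responsive cells, against at most 2480 CPM in the other E2 libraries, and 10836 CPM in its cluster 1 cells, against at most 5048 CPM. Its Greb1 level, 63.0 CPM, was the highest of the E2 libraries. Results that rest on it are given with and without it.

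Promoters are shown for 5 genes on which the results turn, as the 250 bases before the transcript start in RefSeq (GRCm38.p6). Pank3 (chr11:35769245-35769494, plus strand) is the member with a promoter entry that was higher with E2. Hmgcs1 (chr13:119690101-119690350, plus strand) stands for the sterol genes that were lower in cluster 1. Tm7sf2 (chr19:6067851-6068100, minus strand) is the member whose E2 difference differed between the clusters in the main fit, though not with the library as a block. Acot1 (chr12:84009252-84009501, plus strand) and Fads3 (chr19:10041298-10041547, plus strand) were near 0 in cluster 1. Capitals mark CCAAT, the NF-Y box, on either strand and, in Hmgcs1 alone, a match to TCACNCCAC, the core of a sterol regulatory element.
Pank3: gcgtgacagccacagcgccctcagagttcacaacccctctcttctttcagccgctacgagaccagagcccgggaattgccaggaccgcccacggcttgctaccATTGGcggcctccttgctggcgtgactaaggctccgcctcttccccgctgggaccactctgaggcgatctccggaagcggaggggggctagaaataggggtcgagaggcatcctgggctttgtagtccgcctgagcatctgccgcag
Hmgcs1: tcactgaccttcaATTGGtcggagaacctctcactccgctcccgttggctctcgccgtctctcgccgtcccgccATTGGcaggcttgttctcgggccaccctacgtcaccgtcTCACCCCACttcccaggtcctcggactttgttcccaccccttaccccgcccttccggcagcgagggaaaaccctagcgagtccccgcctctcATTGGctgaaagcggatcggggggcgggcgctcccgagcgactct
Tm7sf2: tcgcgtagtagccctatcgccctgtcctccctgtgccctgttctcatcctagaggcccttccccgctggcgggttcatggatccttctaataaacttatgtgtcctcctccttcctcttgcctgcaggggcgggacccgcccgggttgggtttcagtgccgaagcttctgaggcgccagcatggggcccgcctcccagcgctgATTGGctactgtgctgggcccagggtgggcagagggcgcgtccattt
Acot1: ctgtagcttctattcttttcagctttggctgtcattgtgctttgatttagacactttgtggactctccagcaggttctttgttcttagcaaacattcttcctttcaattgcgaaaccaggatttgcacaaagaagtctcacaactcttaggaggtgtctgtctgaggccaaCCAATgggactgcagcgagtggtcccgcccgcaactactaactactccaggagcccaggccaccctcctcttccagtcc
Fads3: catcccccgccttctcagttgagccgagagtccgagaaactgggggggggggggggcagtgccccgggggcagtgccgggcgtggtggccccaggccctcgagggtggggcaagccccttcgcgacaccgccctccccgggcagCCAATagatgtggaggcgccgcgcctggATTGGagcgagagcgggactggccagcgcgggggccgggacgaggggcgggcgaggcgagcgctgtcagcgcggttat

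A promoter entry was found for 39 of 49 members, 47 entries in all, and Lpl had none. TCACNCCAC, searched on both strands, was in the 250 bases of Hmgcs1, 137 bases before the start, and of Acsl1, and in 1.05% of all 32851 entries. CCAAT was in 24 of the 47 member entries and in 11 of the 15 entries of sterol genes, against 33.8% of all entries. Hmgcs1 held it at 3 places, and none of the printed matches overlap. The full estrogen response element (GGTCA and TGACC with 3 bases between) and the DR1 element of PPARs (AGGTCA repeated after 1 base) were in no member entry and in 0.0639% and 0.0335% of all entries. A match is a description of letters and not a measured site.

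In responsive cells, 2 of the 46 members that passed the filter on low counts were called higher in E2 than in control, and none was called lower. These were Lpl, which encodes lipoprotein lipase, the enzyme that frees fatty acids from lipoproteins, and Pank3, a pantothenate kinase at the entry to coenzyme A synthesis. The background share of genes called in this comparison was 1.37% of 10265, with 0.848% higher and 0.526% lower. The members were chosen with earlier results of these data known. The study names Lpl among the genes most correlated with its E2 branch, so the members are not an independent list. Calls needed both an adjusted p under 0.05 in edgeR's quasi-likelihood test and a log2 fold change beyond 0.5 in either direction. The median log2 fold change was 0.07 over the members and 0.02 over all genes. Lipe, Mgll and Acsl1 did not pass the filter. Without E2 library 15, Lpl and Pank3 were still higher and 1 member, Acadl, was called lower, against 1.35% of all genes called.

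Lpl (ENSMUSG00000015568, GRCm38 chr8:68880491-68907448) lay between 186 and 394 CPM in the 10 control libraries of responsive cells, with a median of 278 CPM. In the 9 E2 libraries it lay between 958 and 1633 CPM, with a median of 1104 CPM. Every E2 library was above every control library, which was true of 0.419% of all genes in either direction. The means were 283 ± 72.8 CPM (SD, n = 10) and 1174 ± 191 CPM (SD, n = 9), a 4.13-fold difference (log2 2.05, SE 0.15, adjusted p = 7.58e-10). Lpl ranked 1 by p among the 10265 genes tested. Without library 15, which held the highest value, the E2 mean was 1117 ± 89.3 CPM (SD, n = 8) and the log2 fold change 1.98. Lpl was read in 96.1% of responsive control cells and in 98.6% of responsive E2 cells, and with each cell thinned to 20000 reads in 86.2% and 98.2%.

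Pank3 (ENSMUSG00000018846, chr11:35769484-35791285), whose promoter is printed above, lay between 52.3 and 155 CPM in control responsive cells, with a median of 90.5 CPM. In E2 it lay between 202 and 554 CPM, with a median of 278 CPM. The groups did not overlap, and their means were 92.3 ± 34.3 CPM (SD, n = 10) and 325 ± 103 CPM (SD, n = 9). The difference was 3.50-fold (log2 1.81, SE 0.21, adjusted p = 3.40e-06), the 12th smallest p of all genes. Pank3 was read in 70.0% of responsive control cells and 92.7% of responsive E2 cells. Thinned in the same way, these shares were 49.8% and 81.2%. Without library 15, whose 554 CPM was the highest, the log2 fold change was 1.68.

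**Figure D1:**
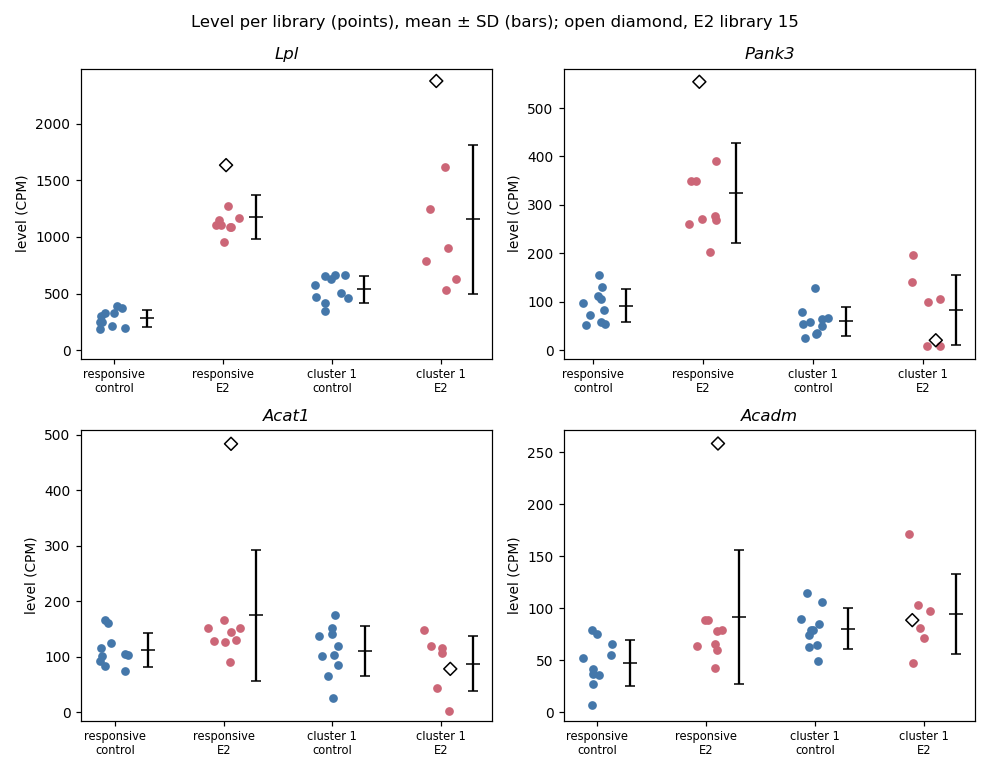
Level in CPM (vertical axes) of Lpl, Pank3, Acat1 and Acadm in each library of the 4 groups named on the horizontal axes, with the mean and SD beside the points. In responsive cells all E2 points of Lpl and Pank3 lie above all control points, while for Acat1 and Acadm E2 library 15 (open diamond, 484 and 258 CPM) lies far above the other E2 libraries.

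Of the other uptake and storage members, none was called in responsive cells. The group had 11 tested members, 7 of them above 0, with a median log2 fold change of 0.36 and a range of -0.83 to 2.05. Plin2, which coats lipid droplets, had the smallest adjusted p after Lpl. Its mean was 156 ± 42.2 CPM in control and 223 ± 55.1 CPM in E2 (log2 0.51, SE 0.18, adjusted p = 0.242), and the groups overlapped. The acyl-CoA synthetases Acsl3 and Acsl5 had log2 fold changes of 0.62 and -0.62, with standard errors of 0.35 and 0.33. The fatty acid binding protein Fabp5 stood at 0.45 (SE 0.37). Plin2, Acsl3, Acsl5 and Fabp5 were picked out after their values were seen.

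Among 15 tested of 25 other uptake, lipase and storage genes, 1 was called, and it was higher. Angptl4, which encodes a secreted inhibitor of lipoprotein lipase, lay between 0 and 35.7 CPM in control responsive cells, with a median of 9.46 CPM, and between 22.8 and 111 CPM in E2, with a median of 58.9 CPM. The groups overlapped, and their means were 13.5 ± 12.7 CPM and 62.2 ± 26.3 CPM (log2 2.20, SE 0.52, adjusted p = 0.0248). Without library 15 the value was 2.14 (adjusted p = 0.0322). The lipase and its inhibitor were both higher with E2 in responsive cells.

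Apart from Pank3, no member of the synthesis group was called. The 12 members had a median log2 fold change of 0.04. Fasn, the fatty acid synthase, stood at -0.14 (SE 0.20), Acaca at -0.03 (SE 0.31) and Acly at -0.29 (SE 0.24). The desaturases Scd1 and Scd2 stood at 0.02 (SE 0.24) and 0.28 (SE 0.17), and Fads1 at 0.07 (SE 0.12). None of the 12 tested of 18 other synthesis and CoA genes was called either, with a median of 0.10.

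The 9 beta-oxidation members did not move one way. Of the values, 7 were above 0 and 2 below, with a median of 0.20 and a range of -0.73 to 0.94. None was called, and 4 had an unadjusted p under 0.05, as did 1015 of all 10265 genes. In E2 responsive cells Acadm, the medium-chain acyl-CoA dehydrogenase, lay between 42.1 and 258 CPM, with a median of 78.1 CPM, and in control between 7.42 and 78.7 CPM, with a median of 46.8 CPM. Its log2 fold change was 0.94 (SE 0.34, adjusted p = 0.270), and 0.57 (adjusted p = 0.571) without library 15, which gave the highest value. Acat1, the mitochondrial acetoacetyl-CoA thiolase, had 74.8 to 167 CPM in control, with a median of 104 CPM, and 90.4 to 484 CPM in E2, with a median of 144 CPM. Here too library 15 gave the highest value and the next was 165 CPM. The log2 fold change was 0.62 (SE 0.24, adjusted p = 0.343), and it fell to 0.27 (adjusted p = 0.705) without that library.

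Acadl, the long-chain acyl-CoA dehydrogenase, went the other way. It lay between 67.9 and 122 CPM in control responsive cells, with a median of 84.0 CPM, and between 23.4 and 113 CPM in E2, with a median of 51.8 CPM. The log2 fold change was -0.73 (SE 0.25, adjusted p = 0.213). The 113 CPM was library 15, and the other 8 E2 libraries reached at most 69.0 CPM. Without it the change was -0.93 (SE 0.23, adjusted p = 0.0285), past the threshold, so the call rests on whether that library is counted. Acadvl, the very-long-chain enzyme, stood at -0.47 (SE 0.21, adjusted p = 0.466), and Cpt1a, which admits fatty acids to mitochondria, at 0.48 (SE 0.26, adjusted p = 0.576). Acadl, Acadvl and Cpt1a were named after their values were seen. Of 22 tested among 26 other beta-oxidation and ketone genes, 0 were called, with 2 at an unadjusted p under 0.05 and a median of 0.27. Without library 15, 1 of these 22 was called lower, the peroxisomal thiolase Acaa1a (log2 -0.61, adjusted p = 0.0328), which stood at -0.73 with all libraries.

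The sterol synthesis members showed the narrowest range of the 4 groups between E2 and control responsive cells. All 14 were tested, their log2 fold changes ran from -0.27 to 0.40 with a median of 0.03, and none was called. Only Fdft1, squalene synthase, had an unadjusted p under 0.05. It lay between 102 and 288 CPM in control and between 174 and 307 CPM in E2, with medians of 167 and 231 CPM (log2 0.40, SE 0.16, adjusted p = 0.378), and the groups overlapped. Hmgcs1, which forms HMG-CoA at the head of the mevalonate route, had medians of 358 and 388 CPM (log2 0.15, SE 0.17). Srebf1 stood at 0.23 (SE 0.35) and Srebf2 at -0.05 (SE 0.20), a value whose sign changed under other settings.

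Among 22 tested of 25 other sterol genes, 1 was called higher. Soat1, the enzyme that esterifies cholesterol for storage, lay between 266 and 496 CPM in control, with a median of 385 CPM, and between 547 and 788 CPM in E2, with a median of 697 CPM. Every E2 library was above every control library. The means were 385 ± 64.0 CPM and 681 ± 74.0 CPM (log2 0.82, SE 0.12, adjusted p = 0.000105). Npc2, a lysosomal cholesterol carrier, passed the p threshold but not the fold limit, at 1900 ± 255 CPM in control and 1372 ± 322 CPM in E2 (log2 -0.48, SE 0.12, adjusted p = 0.0448). It passed both without library 15 (log2 -0.56, adjusted p = 0.000932). No lipid nuclear receptor or partner, of 6 tested among 10, was called, and 0 of them had an unadjusted p under 0.05. DESeq2 and limma-voom also called no member in responsive cells other than Lpl and Pank3.

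**Figure D2:**
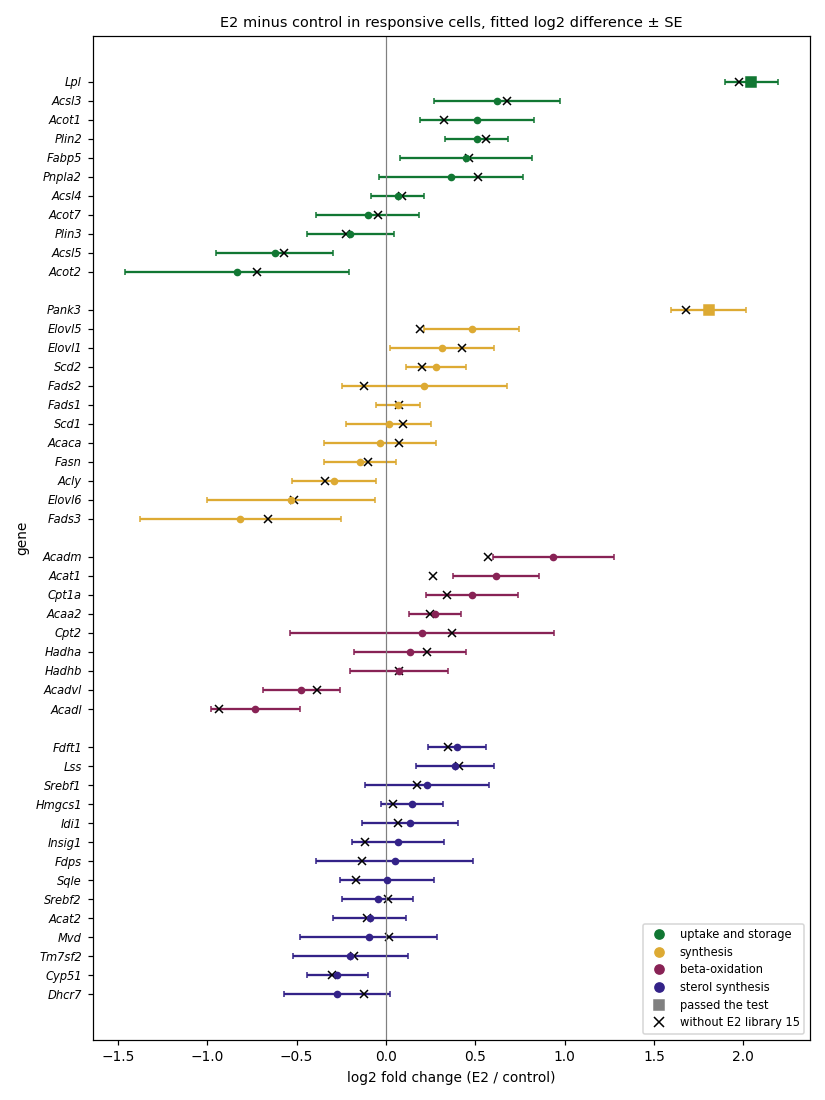
Fitted log2 fold change of E2 over control in responsive cells (horizontal axis, bars are SE) for the 46 tested members (vertical axis), coloured by group, with crosses for the values without E2 library 15. Lpl at 2.05 and Pank3 at 1.81, drawn as squares, passed the test, and the 14 sterol genes lie between -0.27 and 0.40.

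Within cluster 1, no member was called between E2 and control. Of 42 members tested, 21 were above and 21 below 0, the median was 0.00 and 5 had an unadjusted p under 0.05, as did 622 of all 8340 genes. The background was 0.0839% of 8340 genes called, 7 genes in all, with 0.036% higher and 0.048% lower. Without library 15, 0 of 44 members were called. With 39 E2 cells in 7 sums, large differences could be missed too, and the lack of calls does not show that the members did not differ.

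Lpl in cluster 1 lay between 343 and 668 CPM in the 10 control libraries, with a median of 540 CPM, and between 528 and 2376 CPM in the 7 E2 libraries, with a median of 905 CPM. The groups overlapped, and the log2 fold change was 1.14 (SE 0.25, adjusted p = 0.113). DESeq2 called it (log2 1.32, adjusted p = 0.0110), as did the fit on thinned cells (log2 1.14, adjusted p = 0.0375) and the fits without E2 library 17 (adjusted p = 0.0444) or 18 (adjusted p = 0.0465). Over the alternatives other than leaving out a library the adjusted p ran from 0.0110 to 0.272. The highest value was that of library 15, without which the change was 0.86 (adjusted p = 0.153). The E2 difference of Lpl was smaller in cluster 1 than in responsive cells by 0.96 on the log2 scale (SE 0.29), which did not pass the test of the difference (adjusted p = 0.168), while without library 15 it did (log2 -1.16, adjusted p = 0.0375). Neither DESeq2 nor the fit with the library as a block called it (log2 -1.19 to -0.71, adjusted p = 0.219 to 0.335). In control libraries the cluster 1 median of 540 CPM compared with 278 CPM in responsive cells, and in E2 libraries the means were 1156 ± 656 CPM (SD, n = 7) and 1174 ± 191 CPM (SD, n = 9). Pank3 stood at 59.5 ± 29.3 CPM in control and 83.2 ± 72.9 CPM in E2 cluster 1 cells (log2 0.54, SE 0.56, adjusted p = 0.928). This value was 0.16 without E2 library 11 and -0.0099 with limma-voom. Its difference from the responsive value was not called (log2 -1.31, SE 0.55, adjusted p = 0.342).

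Tm7sf2, which encodes a sterol delta-14 reductase of cholesterol synthesis, was the only member whose E2 difference differed between the clusters by the interaction test. The background there was 0.184% of 11398 genes, with 0.0175% higher and 0.167% lower, and 48 members were tested. In cluster 1 it lay between 30.1 and 81.6 CPM in control libraries, with a median of 61.8 CPM, and between 0 and 17.4 CPM in E2 libraries, with a median of 2.51 CPM and 3 of 7 at 0. The groups did not overlap, as for 0.108% of the genes tested in cluster 1. In responsive cells the means were 42.9 ± 19.8 CPM in control and 37.5 ± 11.97 CPM in E2. The interaction was -3.55 on the log2 scale (SE 0.72, adjusted p = 0.0170). It was called by DESeq2 (log2 -3.44, adjusted p = 1.43e-05) and not with the library as a block (log2 -4.12, adjusted p = 0.219). The E2 difference within cluster 1 alone was -3.68 (SE 0.82, adjusted p = 0.114) in the main test, and it passed in DESeq2 (adjusted p = 9.65e-07), in limma-voom (adjusted p = 0.0363) and without E2 library 16 (adjusted p = 0.0237). The E2 cells of cluster 1 held 17 reads of Tm7sf2 in all, in 7 of 42 cells (16.7%, exact 95% interval 6.97% to 31.4%), against 852 reads in 49 of 126 control cells (38.9%, 30.3% to 48.0%). Such intervals cover only the counting error of cells, since the cells of a condition are not replicates. Of its 31-base sequences, 13.3% are shared with other genes, most of them with the neighbouring Vps51.

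Among the other sterol members, 8 of 12 tested had values below 0 with E2 in cluster 1, and none passed the test. Their median was -0.48 against -0.06 over all genes. The E2 cells of cluster 1 also had fewer reads and a higher mitochondrial share than the control cells there, and the part of these in the values was not tested. Hmgcs1 lay between 66.8 and 253 CPM in control cluster 1 libraries and between 6.59 and 181 CPM in E2 (log2 -0.98, SE 0.49, adjusted p = 0.676). Fdft1 lay between 26.6 and 134 CPM in control and between 2.59 and 111 CPM in E2 (log2 -0.91, SE 0.63, adjusted p = 0.822). Both overlapped between the groups. Srebf2 reached 474 CPM in library 15, where the next E2 library had 64.2 CPM, and its log2 fold change went from 0.69 with that library to -1.01 without it.

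**Figure D3:**
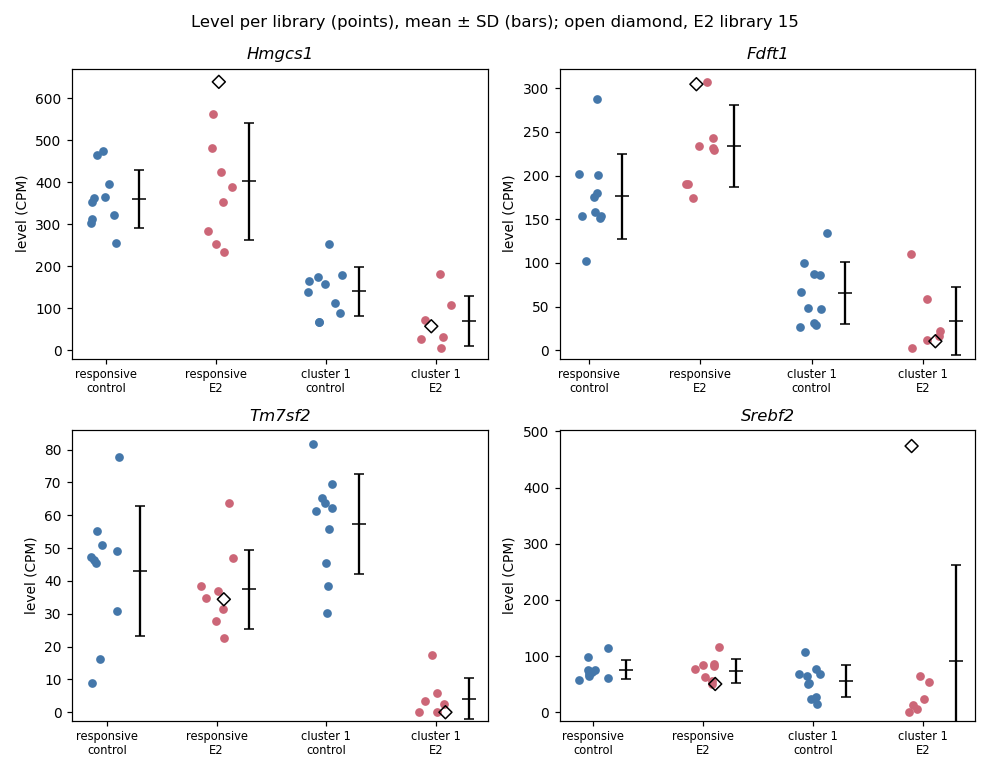
Level in CPM (vertical axes) of Hmgcs1, Fdft1, Tm7sf2 and Srebf2 in each library of the 4 groups, with mean and SD beside the points. The 7 E2 libraries of cluster 1 lie at or below 17.4 CPM for Tm7sf2, below all 10 control libraries, and library 15 (open diamond) alone reaches 474 CPM for Srebf2.

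Between the clusters, values are a description with no test, because the clusters were made from expression of these genes among others. Of 48 members, 36 had a lower and 12 a higher fitted level in cluster 1, beside 6068 lower and 5330 higher of all 11398 genes. The median difference was -0.33 against -0.06 over all genes. Of the members, 10 were lower and 1 higher by more than 1 on the log2 scale. Over all 11398 genes, 14.8% were lower and 9.73% higher by that much. Without library 15 the counts were 11 lower and 1 higher. Control cells of cluster 1 had a median of 112126 reads and responsive control cells 143233, and with cells thinned to 20000 reads 6 of 41 members were lower by more than 1, against 9.94% of all genes. With the library as a block, which pairs the sums of a library, 16 of 48 were, against 29.6% of all genes.

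All 14 sterol members had a lower fitted level in cluster 1 over both treatments, as did 6068 of all 11398 genes. The sterol median difference was -0.78, with a range of -1.98 to -0.08. Without library 15, 13 of the 14 were below 0, and with DESeq2 12 were. Fdft1 and Hmgcs1 were lower in all 17 libraries that had both sums. Fdft1 had a log2 difference of -1.98 (SE 0.30) and stood at 65.6 ± 35.8 CPM in control cluster 1 cells (SD, n = 10), against 176 ± 48.6 CPM in responsive control cells of the same libraries. Its transcripts share 63.2% of the 31-base sequences of their last 500 bases with other genes, so that its level is uncertain. In the last 500 bases the share was 54.7% for Fdps, 40.2% for Idi1 and 36.8% for Acat2, whose levels are uncertain too. Hmgcs1, which shares 3.67% there, had a log2 difference of -1.85 (SE 0.26), with 140 ± 58.1 CPM against 361 ± 69.1 CPM in control. Tm7sf2 was mixed, lower in 9 of 17 libraries. Insig1, which holds SREBPs in the endoplasmic reticulum, was close to level at -0.08 (SE 0.25) and higher in 10 of 17 libraries. In control cells, the means in cluster 1 and responsive cells were 57.4 and 42.9 CPM for Tm7sf2 and 91.8 and 83.5 CPM for Insig1. The control means of the other sterol members were lower in cluster 1, though that of Sqle only slightly (142 and 143 CPM). Srebf1 stood at -0.29 (SE 0.42). Srebf2 stood at -0.17 (SE 0.38), at -0.86 without library 15, at -0.91 with the library block and at 0.054 with DESeq2.

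Of the other sterol genes, 14 of 22 were lower and 8 higher in cluster 1, with a median of -0.19. Soat1 was lower in cluster 1 (-1.42, SE 0.20), whereas Abca1, the cholesterol exporter, was higher (4.77, SE 0.60). These were picked out after their values were seen.

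Acot1 and Fads3 were nearly absent from cluster 1. The first of them, Acot1, is a cytosolic acyl-CoA thioesterase that frees fatty acids from coenzyme A, and it lay between 10.0 and 60.1 CPM in control and between 27.0 and 85.7 CPM in E2 responsive cells. Its E2 difference there was not called (log2 0.51, SE 0.32, adjusted p = 0.673), and it was 0.33 without library 15, which held the 85.7 CPM. In cluster 1 it was at 0 in 8 of 10 control and 7 of 7 E2 libraries, with at most 1.87 CPM. Cluster 1 held 4 reads of it in all, in 3 of 168 cells (1.79%, exact 95% interval 0.370% to 5.13%), while 124 of 421 responsive cells had a read (29.5%, 25.1% to 34.1%). In E2 cells of cluster 1 it was read in 0 of 42 cells, which allows a share of cells with a read of up to 7.14% by a floor of 3 counts, or 8.41% as the exact upper limit. Acot1 shares 22.8% of its 31-base sequences with other genes, 16.7% with Acot2, its neighbour, which was not lower in cluster 1 (log2 0.56, SE 0.52). In the last 500 bases of Acot1 transcripts the share with other genes was 31.1%.

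Fads3, of the fatty acid desaturase family, lay between 10.6 and 82.9 CPM in control and between 0.508 and 49.7 CPM in E2 responsive cells. Its E2 difference was not called either (log2 -0.81, SE 0.56, adjusted p = 0.732). In cluster 1 it was at 0 in 8 of 10 control and 6 of 7 E2 libraries, with at most 2.51 CPM. It was read in 4 of 168 cluster 1 cells (2.38%, exact 95% interval 0.652% to 5.98%) and in 82 of 421 responsive cells (19.5%, 15.8% to 23.6%). The fitted log2 differences, -7.04 for Acot1 and -6.46 for Fads3, depend on the small count that the fit adds and are not bounds. Fads1 and Fads2, which lie beside Fads3 on chromosome 19, went different ways, with log2 differences of 0.57 (SE 0.14) and -1.30 (SE 0.58).

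Fabp5, a carrier of fatty acids in the cytosol, was the only member higher in cluster 1 by more than 1 on the log2 scale. It was at 204 ± 94.4 CPM in control cluster 1 and 45.9 ± 31.6 CPM in control responsive cells, a log2 difference of 2.38 (SE 0.30) over both treatments, and it was higher in 16 of 17 libraries. The stearoyl-CoA desaturases Scd1 and Scd2 were also above 0, at 0.81 (SE 0.27) and 0.75 (SE 0.14), in 13 and 15 of 17 libraries. Over both treatments, Lpl was higher by 0.51 (SE 0.16) in 11 of 17, and Pank3 lower by more than 1 (-1.19, SE 0.30) in 15 of 17. These differences were unlike in the 2 treatments. Mean Pank3 in cluster 1 and responsive cells was 59.5 and 92.3 CPM in control, and 83.2 and 325 CPM in E2. Mean Lpl was 538 and 283 CPM in control, and 1156 and 1174 CPM in E2. The beta-oxidation members had a median of -0.30, with Acadvl at -1.19 (SE 0.26), Acaa2, a thiolase, at -0.91 (SE 0.14) in 16 of 17 libraries, and Acadm at 0.45 (SE 0.25). Cpt2, which was read in 13.1% of all cells, stood at -1.25 (SE 0.86). Fabp5, Scd1, Scd2, Acadvl, Acaa2 and Cpt2 were named after their values were seen. Acadvl shares 33.2% of its 31-base sequences with the adjacent Dvl2, and 42.2% of those in the last 500 bases of its transcripts.

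**Figure D4:**
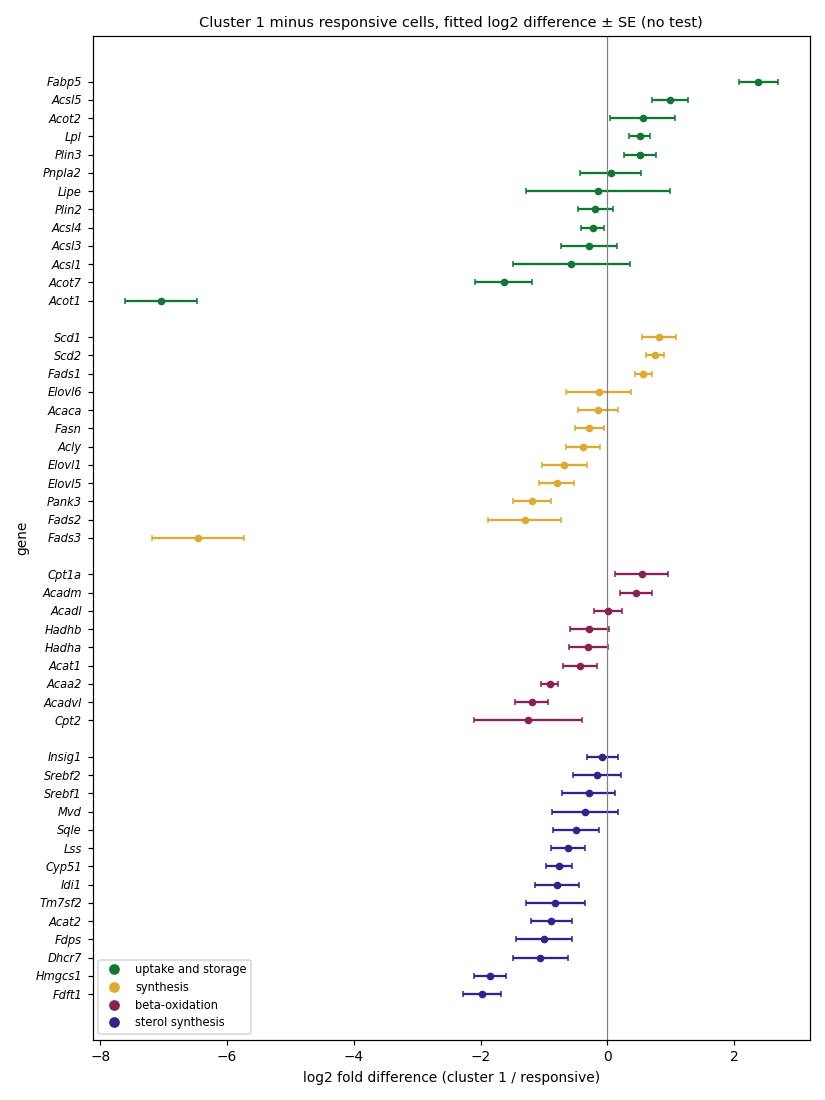
Fitted log2 difference between cluster 1 and responsive cells (horizontal axis, bars are SE) for 48 members (vertical axis), coloured by group, with no test. Acot1 at -7.04 and Fads3 at -6.46 lie far to the left, Fabp5 at 2.38 is the highest, and all 14 sterol members are below 0.

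Along the deposited trajectory, whose states were made from the same expression values, levels were taken from reads summed over all cells of a state and treatment, with no replicate error. The 41 E2 cells of state 1 were all of cluster 1, and its control cells were 126 of cluster 1 and 22 responsive. In states 2, 4, 5 and 6 the cells were responsive, apart from 1 E2 cell of state 4. Differences between state 1 and the other states thus largely restate those between the clusters. Lpl stood at 499, 273 and 283 CPM in control cells of states 1, 2 and 4, and at 1018, 1004, 1139 and 1047 CPM in E2 cells of states 1, 4, 5 and 6, so that each of these E2 levels was above each of these control levels. Only states with at least 20 cells of a treatment were used, which left out 4 E2 cells of state 2 and 3 and 14 control cells of states 3 and 7. Pank3 was at 64.2 to 93.0 CPM in the control states, at 98.5 CPM in E2 cells of state 1 and at 232 to 329 CPM in E2 states 4, 5 and 6. Hmgcs1 was lowest in E2 cells of state 1, at 68.7 CPM, and highest in E2 cells of state 6, at 505 CPM.

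**Figure D5:**
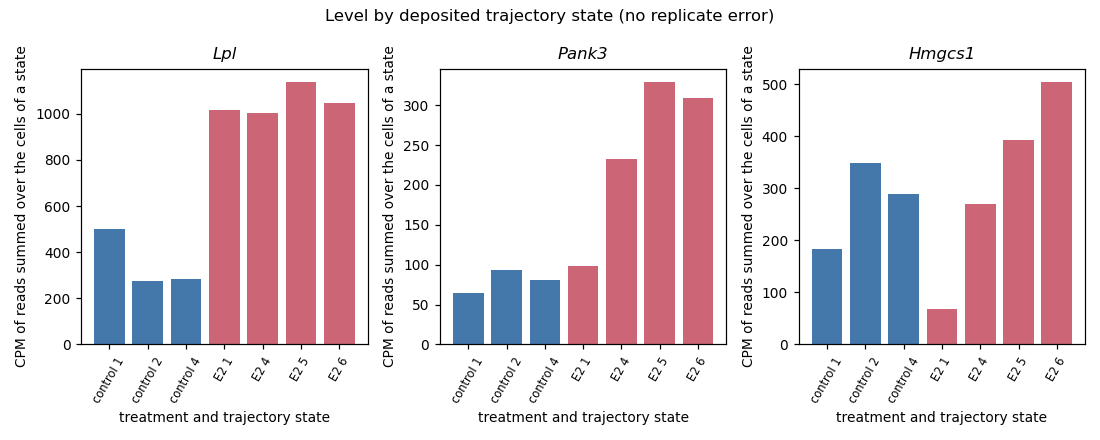
CPM of reads summed over the cells of a trajectory state (vertical axes) for Lpl, Pank3 and Hmgcs1, with 1 bar for each treatment and state named on the horizontal axes. The 4 E2 bars of Lpl, from 1004 to 1139 CPM, stand above the 3 control bars, from 273 to 499 CPM.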

How the data were processed

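The authors split the reads of each column library by capture site, quantified transcripts with kallisto 0.44.0 (GRCm38 in the processing notes), summed them to genes with tximport, kept sites with 1 live cell and dropped rarely detected genes. The release of the transcript index is not given in the sources used here. The table the authors deposited holds estimated counts, not normalized, and the chemistry carried no molecular identifiers. Of the values above 0, 66.9% were exactly whole, with no tolerance. The deposited metadata give the percent of mitochondrial reads for each cell, SC3 cluster labels and monocle states, both made from imputed values. The imputed file was not used, and no doublet caller was run, as sites were inspected for 1 cell. Cluster 1 and responsive cells are the cells given labels 2 and 1 in the column for 2 clusters.

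Counts were summed per library and cluster (at least 3 cells), rounded, and fitted in edgeR 4.0.16 (R 4.3.3) by the quasi-likelihood test after TMM scaling and filterByExpr. P-values are two-sided and adjusted by Benjamini-Hochberg over all genes tested. SE was taken as the size of the log2 fold change over the root of F. Groups were taken from the sample labels. Alternatives were DESeq2 1.42.0, limma-voom (limma 3.58.1), no gene filter, thinning to 20000 reads, equal weight of cells, all cells, labels for 3 clusters, at least 5 cells, a library block, and leaving out each library. Leaving out libraries in the interaction, and library 15 in the cluster comparison and list counts, was added after seeing the data.

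Members and lists were chosen with earlier results of these data known. Named members are those called, those past 1 on the log2 scale between clusters with the same sign in every library, Lpl, Acat1, Acadm, Srebf1 and Srebf2. Other pathway genes are named where called in responsive cells. The test was checked on simulated counts. Coordinates are from GENCODE M21 (GRCm38), and shared 31-base sequences were counted in its transcripts.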

Additional observations from a re-analysis of the deposited data

Results flagged for a closer look

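Of 43 groups of libraries examined for the named members, 11 held a library whose gap to its neighbour exceeded Dixon's critical value, where chance flags about 1 in 20 groups. Of these values, 5 came from E2 library 15. In its responsive cells Lpl was at 1633 CPM (next 1275), Acot1 at 85.7 CPM (next 48.7), Acat1 at 484 CPM (next 165) and Acadm at 258 CPM (next 88.8), and in its cluster 1 cells Srebf2 was at 474 CPM (next 64.2). The part of that library's difference from the others in these values was not tested beyond the fits without it.

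The other 6 were in cluster 1. Control library 2 held 128 CPM of Pank3 (next 78.5) and 76.2 CPM of Srebf1 (next 19.3). E2 library 16 held 17.4 CPM of Tm7sf2 (next 5.88). Acot1 in control library 4 (1.87 CPM), Fads3 in control library 10 (1.62 CPM) and Fads3 in E2 library 20 (2.51 CPM) come from groups that held 4, 4 and 1 reads in all. In these groups 8 of 10, 8 of 10 and 6 of 7 libraries were at 0, where 1 library with reads is easily flagged.

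The E2 difference of Tm7sf2 differed between cluster 1 and responsive cells by -3.55 on the log2 scale in edgeR's interaction test (adjusted p = 0.0170). With the library as a block, since both sums come from the same libraries, it was -4.12 and not called (adjusted p = 0.219). The E2 levels lay below every control library in cluster 1 and overlapped in responsive cells.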

How the results depend on the processing

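Lpl and Pank3 in responsive cells were called under all 7 other settings and all 19 fits without 1 library (log2 1.98 to 2.11 and 1.68 to 1.92). Without 1 library, members called were 2 to 3 in responsive cells (all genes 107 to 141), 0 to 1 in cluster 1 (1 to 9) and 1 to 2 in the interaction (15 to 44). DESeq2 called 266 genes in responsive cells, 84 in cluster 1 (22 higher, 62 lower) with 2 members (Lpl and Tm7sf2), and 114 in the interaction (35 higher, 79 lower). In cluster 1, limma-voom and thinned cells each called 1 member (Tm7sf2 and Lpl), and without a gene filter 1 gene was called. With the library as a block, 0 members and 0 genes were called in the interaction, where Tm7sf2 stood at -4.12. The block also moved the median of all genes between clusters from -0.06 to -0.42, and that of the sterol members from -0.78 to -0.98. Members lower in cluster 1 by more than 1 were then 16, and 6 with thinned cells. Members higher were 3 with DESeq2 and 2 without a filter or with labels for 3 clusters.

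Among the named members, signs turned only for changes that were not called. In responsive cells these were Tm7sf2 (0.015 with limma-voom, 0.10 thinned, 0.12 with equal weight) and Srebf2 (0.073 thinned, 0.075 with all cells, -0.16 to 0.039 without 1 library). In cluster 1 they were Pank3 (-0.0099 with limma-voom) and Srebf2 (-0.86 with DESeq2, -1.28 with limma-voom, -1.01 with at least 5 cells, -1.01 to 0.96 without 1 library). Between clusters, Srebf2 turned from -0.17 to 0.054 with DESeq2, as a description with no test. The cause was not tested. Control and E2 libraries could not be paired, because their columns carry different numbers. The main cluster and interaction fits did not pair the sums of a library, which only the library block did. Depth limits cluster 1 most, and no p-value covers cultures.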

Other observations

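Other lipid genes also differed between the clusters, as a description with no test and chosen after their values were seen. Vldlr, a lipoprotein receptor, was lower in cluster 1 (-4.52, SE 0.63) and the elongase Elovl7 stood at -2.43 (SE 0.61). Pank1, a paralogue of Pank3, was higher (3.41, SE 1.05), although Pank3 was lower. The electron carriers Etfa and Etfdh, which take electrons from acyl-CoA dehydrogenases, stood at -1.03 (SE 0.32) and -1.39 (SE 0.52). Of 24 other beta-oxidation and ketone genes, 4 were lower and 1 higher by more than 1, Acad10 (1.39, SE 0.79). Among 14 other synthesis and CoA genes, 2 were lower and 2 higher, Pank1 and Hsd17b12 (1.03, SE 0.34). Of 16 other uptake, lipase and storage genes, 3 were lower and 0 higher. Over all genes, 14.8% were lower and 9.73% higher by that much. Of 10 steroidogenic markers, 3 were in the table. Star, which brings cholesterol into mitochondria, had means of 35.9 and 51.1 CPM in control and E2 responsive cells. In cluster 1 its means were 214 and 263 CPM. Inha had means of 17.2 and 24.7 CPM in control and E2 responsive cells, and 72.3 and 50.3 CPM in cluster 1. Cyp11a1, which cleaves the cholesterol side chain, was at most at 1.45 CPM in any group mean.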
